A study of Mus musculus with 6 samples.

Results

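The genes described here are 10 members of the cap'n'collar (CNC) antioxidant network, picked by symbol from the 48526 gene identifiers of the count tables. They are the transcription factors Nfe2l1, Nfe2l2, Nfe2l3 and Bach1, the Nfe2l2 regulator Keap1, and the antioxidant genes Nqo1, Hmox1, Gclc, Gclm and Txnrd1. All 10 were found and all 10 passed the filter on low counts. They were named with values of the doxycycline comparison already known, among them the low Nfe2l3 of the treated libraries. Their changes with doxycycline are therefore a description. No p-value is printed for them, and where one of them is said to pass a threshold, that too only describes the values that chose it.

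The libraries were made from total RNA of mouse cells that the labels call KP and do not describe further. Cells had received pLKO.1-Tet on, a vector that makes a hairpin RNA when doxycycline is present, and puromycin selection had left 3 stable lines. Each line carries another hairpin against Npm1, the gene of the nucleolar protein nucleophosmin, and is called line 3, 4 or 5 here after shNpm1-3, shNpm1-4 and shNpm1-5. Each line was grown without doxycycline and with 100 ng/ml, which gave 3 libraries per group. Both groups hold vector, hairpin and selection. No line lacked a hairpin against Npm1, so the drug and the knockdown cannot be told apart. The labels do not say whether a line is a clone or a pool. The 3 values of a group are 3 lines with different hairpins, with 1 library per line and condition.

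CNC factors are basic leucine zipper proteins that pair with small Maf proteins and bind the antioxidant response element. Nfe2l2 (Nrf2) is the main activator of genes for glutathione, thioredoxin and quinone reduction. Keap1 hands it to a Cul3 ubiquitin ligase for breakdown until electrophiles or oxidants block this, so its activity is set largely at the protein level. Bach1 represses some of the same genes, Hmox1 above all, until heme binds it. Nfe2l1 (Nrf1) and Nfe2l3 (Nrf3) are made as glycoproteins of the endoplasmic reticulum and have to be released from it, and Nfe2l1 is known for raising proteasome genes when the proteasome is short.

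The libraries held 24391198 to 27341036 counts in genes. Npm1 was at 1851 to 2002 counts-per-million (CPM, scaled by the trimmed mean of M values, TMM) without doxycycline and at 67.8, 245 and 399.7 CPM with it in lines 3, 4 and 5. The treated library of line 3 stood apart, with a chi-square per degree of freedom of 108 and 80.9 against the treated libraries of lines 4 and 5, where these differed from each other by 35.8 and untreated libraries by 7.86 to 22.6. Epithelial markers summed to 8900 to 12110 CPM over 10 genes. Most of this was Krt8, Krt18 and Krt19, with means of 4060, 3616 and 3194 CPM without doxycycline. Esrp1, Krt14, Krt5 and Cldn7 were low, with means of 0.117, 0.826, 1.08 and 2.55 CPM without doxycycline. All 9 epithelial markers tested had log2 fold changes below 0 with doxycycline, and 1 of them (Cldn4) passed as lower (edgeR, adjusted p under 0.05). The 7 fibroblast and 6 endothelial markers summed to 1.78 to 6.55 and 0.412 to 1.33 CPM, with Lum at 0 in both groups. Markers of macrophages and lymphocytes moved with the treatment. Of 12 macrophage markers 10 were above 0 and 9 passed as higher at the same threshold, where 0.963% of all genes tested did. The range of their sum was 399.8 to 461 CPM in untreated and 348 to 516 CPM in treated libraries. Without Mrc1, which was at 348.5 to 414 CPM in untreated and 159.9 to 381 CPM in treated libraries, it was 47.1 to 51.3 and 136 to 274 CPM. All 10 T lymphocyte markers were below 0 and 8 passed as lower, where 1.32% of all genes tested did. Their sum was 21.3 to 31.2 CPM without and 5.09 to 8.95 CPM with doxycycline, and Cd3d and Nkg7 were at 0 with it. Ighm, the heavy chain of IgM and a marker of B lymphocytes, was lower as well, at 2.19, 5.09 and 1.61 CPM without and 0.183, 0.198 and 0 CPM with doxycycline in lines 3, 4 and 5 (edgeR adjusted p = 0.00836). Their part in the values below was not tested.

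The antioxidant response element links the members to each other, so their promoters were searched for its core. RefSeq windows of build GRCm38.p6, from 250 bases before to 50 after each start, were at hand for 8 members, but not for Hmox1 and Gclc. The core searched was TGACNNNGC on both strands. It was present in a window of Nfe2l2, Gclm and Txnrd1, 3 of these 8 genes, against 14% of all 27018 genes with a window. Genes with several starts have several windows, 3 of them for Txnrd1, and so more places for a match. By window the core was in 3 of 14 (21.4%) of the members, against 12.4% of all 32841 windows. The windows of Nfe2l1, Nfe2l3, Bach1, Keap1 and Nqo1 had no match, which says nothing of sites farther away. Shown are the 250 bases before the start of Nfe2l3, the member with the largest difference between the groups, of the 3 members with a match, and of Blvra, the pathway gene that passed the test below. Bases are lower case, 5′ to 3′ on the strand of the gene, with the core in capitals on either strand.
Nfe2l3, chr6:51432419-51432668, plus strand: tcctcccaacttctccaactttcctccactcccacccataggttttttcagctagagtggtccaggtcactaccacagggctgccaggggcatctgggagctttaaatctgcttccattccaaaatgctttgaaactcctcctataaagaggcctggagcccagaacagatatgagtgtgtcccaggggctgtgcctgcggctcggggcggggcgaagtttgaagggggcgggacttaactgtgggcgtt
Nfe2l2, chr2:75704664-75704913, minus strand: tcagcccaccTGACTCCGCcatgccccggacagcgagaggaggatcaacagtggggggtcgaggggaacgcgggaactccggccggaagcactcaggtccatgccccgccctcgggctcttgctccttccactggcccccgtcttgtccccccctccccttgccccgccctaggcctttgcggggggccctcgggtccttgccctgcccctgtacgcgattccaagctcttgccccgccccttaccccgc
Gclm, chr3:122245307-122245556, plus strand: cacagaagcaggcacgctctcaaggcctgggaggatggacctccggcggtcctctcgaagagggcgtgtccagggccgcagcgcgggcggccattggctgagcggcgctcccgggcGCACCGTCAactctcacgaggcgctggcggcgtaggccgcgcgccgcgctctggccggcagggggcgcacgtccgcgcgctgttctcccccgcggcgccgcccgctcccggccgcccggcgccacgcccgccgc
Txnrd1, chr10:82858956-82859205, plus strand: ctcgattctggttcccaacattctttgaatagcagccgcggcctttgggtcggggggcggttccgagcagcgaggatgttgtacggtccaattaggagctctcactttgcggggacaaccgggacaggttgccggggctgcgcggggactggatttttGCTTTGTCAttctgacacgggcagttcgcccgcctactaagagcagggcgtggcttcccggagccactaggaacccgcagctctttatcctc
Blvra, chr2:127070407-127070656, plus strand: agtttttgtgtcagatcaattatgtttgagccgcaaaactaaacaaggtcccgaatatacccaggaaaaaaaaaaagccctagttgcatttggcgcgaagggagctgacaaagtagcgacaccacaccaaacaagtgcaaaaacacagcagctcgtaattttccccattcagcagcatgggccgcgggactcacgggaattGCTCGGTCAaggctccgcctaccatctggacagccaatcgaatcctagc
The sites read TGACTCCGC in Nfe2l2, TGACGGTGC in Gclm, TGACAAAGC at an internal start of Txnrd1 and TGACCGAGC in Blvra on the strand of the motif. Their first bases on the gene's strand lie at -240, -134, -92 and -49 from the start. A match is a description of the sequence and not a bound site.

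Nfe2l3 (ENSMUSG00000029832, chr6:51432670-51458768, plus strand) was the factor whose groups stood apart. Without doxycycline it was at 10.9, 15.0 and 12.0 CPM in lines 3, 4 and 5, and with doxycycline at 5.22, 2.48 and 4.79 CPM. All 3 treated libraries lay below all 3 untreated ones. The means were 12.7 ± 2.13 and 4.16 ± 1.47 CPM (SD, n = 3 each), a log2 fold change of -1.61 (SE 0.28, 95% interval -2.226 to -1.004), or 0.326 of the untreated level. These values rest on 284, 384 and 313 reads without and 114, 75 and 125 with doxycycline. The remaining share was 47.7% in line 3, 16.5% in line 4 and 39.8% in line 5. For Npm1 the remaining shares were 3.39%, 13.2% and 20.8% in the same order, and a relation between both shares was not tested.

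In the edgeR fit over 14531 genes, Nfe2l3 was the 1 member of the 10 with an adjusted p under 0.05, where 2.28% of all genes tested passed (1.32% lower and 0.963% higher). It was also the 1 member whose groups did not overlap, where 22.6% of all genes tested had groups that did not overlap. The comparison had been used to name the members, and nothing is read from these counts. Nfe2l3 did not pass when the untreated library of line 3, the untreated library of line 4 or both libraries of line 4 were left out, with log2 fold changes of -1.71, -1.47 and -1.20.

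The other CNC factors kept overlapping groups. Nfe2l2 (ENSMUSG00000015839, chr2:75675513-75704641, minus strand) was at 114, 124 and 116 CPM in lines 3, 4 and 5 without doxycycline and at 127, 93.1 and 122 CPM with it. Line 4 alone was lower with doxycycline, and the log2 fold change was -0.05 (95% interval -0.36 to 0.26). Nfe2l1 (ENSMUSG00000038615, chr11:96817414-96829968, minus strand) was at 96.8, 108 and 105 CPM without and 123, 80.3 and 91.0 CPM with doxycycline. It was higher in line 3 and lower in lines 4 and 5, with a log2 fold change of -0.08 (95% interval -0.44 to 0.28). As fold changes these intervals run from 0.778 to 1.20 for Nfe2l2 and from 0.739 to 1.21 for Nfe2l1, so smaller changes of either factor cannot be seen here.

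Bach1 (ENSMUSG00000025612, chr16:87698945-87733346, plus strand), the repressor of the group, was at 24.5, 24.5 and 20.9 CPM without and 19.1, 23.0 and 17.5 CPM with doxycycline. It was lower in all 3 lines, but the treated value of line 4 lay above the untreated one of line 5. The log2 fold change was -0.23 (SE 0.15, 95% interval -0.57 to 0.11). Keap1 (ENSMUSG00000003308, chr9:21229730-21239361, minus strand) was at 22.1, 29.4 and 26.1 CPM without and 23.2, 23.5 and 17.99 CPM with doxycycline. Its groups overlapped, and the log2 fold change was -0.26 (SE 0.16, 95% interval -0.62 to 0.10). Of its exonic bases 10.9% overlap the antisense gene Gm16754, and reads of the 2 strands cannot be told apart since the strand setting is not given in the sources used here.

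**Figure D1:**
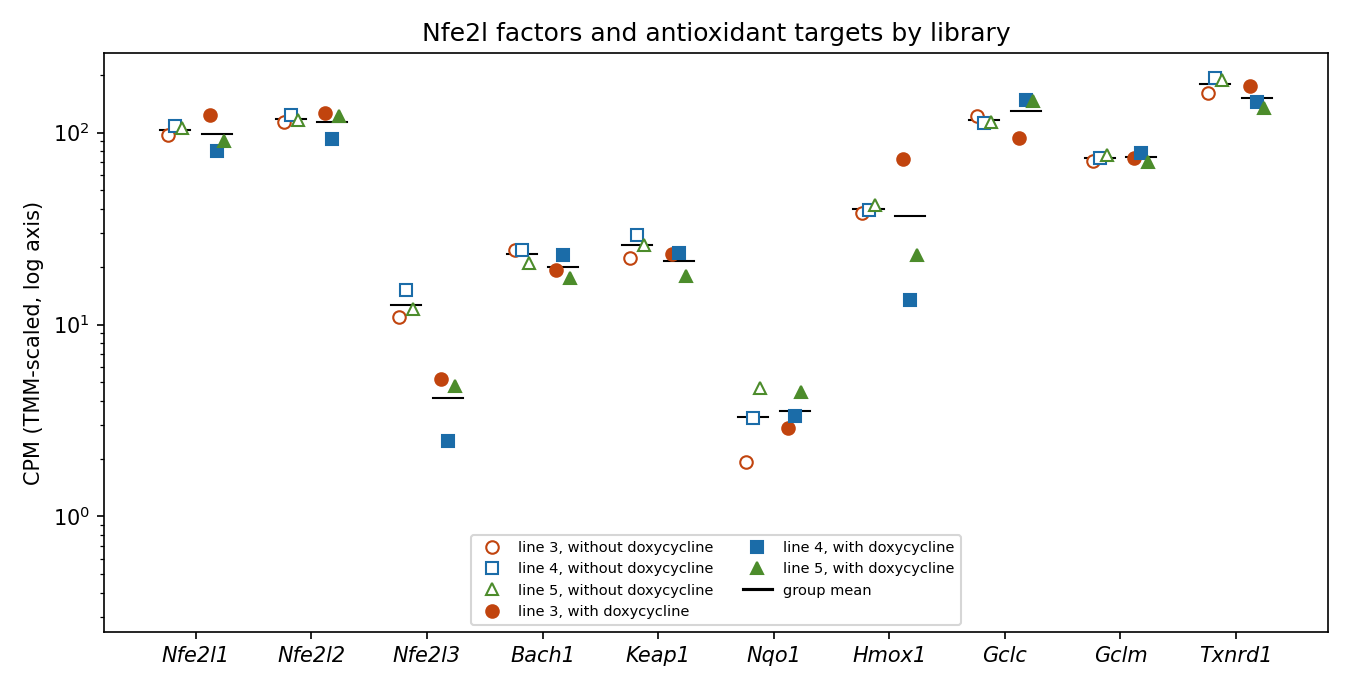
TMM-scaled CPM (log axis) of the 10 genes in each of the 6 libraries, open symbols without and filled symbols with doxycycline, with the shape giving the line and the bar the group mean. Nfe2l3 is the gene whose filled symbols (2.48 to 5.22 CPM) all lie below its open ones (10.9 to 15.0 CPM), and the filled symbols of Hmox1 spread from 13.4 to 73.3 CPM.

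Among the targets, Hmox1 (ENSMUSG00000005413, chr8:75093621-75100589, plus strand), the heme oxygenase that opens the heme ring, varied most between treated libraries. Without doxycycline the 3 lines were close together, at 37.9, 39.6 and 41.8 CPM. With doxycycline line 3 was at 73.3, line 4 at 13.4 and line 5 at 23.0 CPM, so that the treated libraries lay on both sides of the untreated ones. Line 3 was at 193% of its untreated level, line 4 at 33.8% and line 5 at 55.1%. The fitted log2 fold change was -0.13 (SE 0.47, 95% interval -1.17 to 0.92), with opposite changes behind it. It was -0.50 under the replicate block, which compares libraries within lines, and -0.53 in limma-voom. It was -1.12 without the treated library of line 3 and -1.16 without both libraries of line 3, the line that went the other way. It was 0.27 without the treated library of line 4 and 0.12 without that of line 5. The summed macrophage markers other than Mrc1 were at 188, 274 and 136 CPM in treated lines 3, 4 and 5, and their part in the Hmox1 values was not tested.

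Glutamate-cysteine ligase, which makes the first step of glutathione synthesis, has a catalytic and a modifier subunit. The catalytic subunit Gclc (ENSMUSG00000032350, chr9:77754535-77794485, plus strand) was at 121, 112 and 114 CPM without and 94.2, 147 and 146 CPM with doxycycline. It was lower in line 3 and higher in lines 4 and 5, the reverse of Hmox1, with a log2 fold change of 0.16 (95% interval -0.22 to 0.54). The modifier subunit Gclm (ENSMUSG00000028124, chr3:122245557-122270732, plus strand) was the steadiest member, at 71.5, 73.4 and 76.7 CPM without and 73.9, 78.55 and 70.3 CPM with doxycycline. Its log2 fold change was 0.01 (SE 0.11, 95% interval -0.25 to 0.26), and 4.71% of its exonic bases overlap Gm17494 or the pseudogene Gm6061.

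Txnrd1 (ENSMUSG00000020250, chr10:82833951-82897712, plus strand), the cytosolic thioredoxin reductase, was at 159.99, 192 and 189 CPM without and 174, 145 and 135 CPM with doxycycline. It was higher in line 3 and lower in lines 4 and 5. The log2 fold change was -0.25 (SE 0.14, 95% interval -0.56 to 0.06). Nqo1 (ENSMUSG00000003849, chr8:107388225-107403206, minus strand), the quinone reductase often used to read Nfe2l2 activity, was the lowest member in CPM without doxycycline, at 1.93, 3.25 and 4.68 CPM, and at 2.88, 3.34 and 4.44 CPM with it. With 50 to 122 reads per library its log2 fold change of 0.11 had a 95% interval from -0.63 to 0.85, which leaves a change to 0.648 or to 1.81 times the level within reach.

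**Figure D2:**
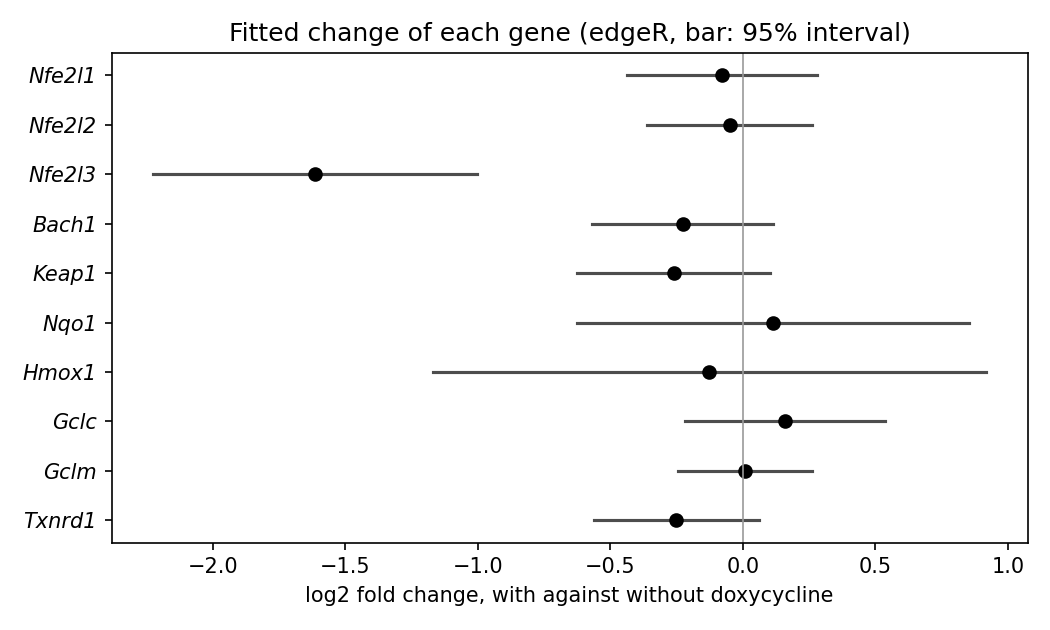
Fitted log2 fold change of the 10 genes with against without doxycycline (edgeR, 3 libraries per group), points for the estimate and bars for the 95% interval. Only the bar of Nfe2l3 (-2.226 to -1.004) lies wholly on one side of 0, and that of Hmox1 is the longest (-1.17 to 0.92).

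Per kilobase of annotated exons, which allows genes to be set beside each other, the members spanned a wide range of levels. Without doxycycline Nfe2l2 was highest at 31.1 ± 1.36 CPM per kilobase (SD, n = 3), followed by Gclc at 30.7 ± 1.34, Txnrd1 at 25.4 ± 2.47, Hmox1 at 22.7 ± 1.10, Nfe2l1 at 19.0 ± 1.12 and Gclm at 11.7 ± 0.419. Keap1 at 5.51 ± 0.774, Nfe2l3 at 4.26 ± 0.717, Bach1 at 3.765 ± 0.333 and Nqo1 at 2.12 ± 0.889 followed on the same scale. The ranges of neighbours in this order overlapped for Nfe2l2 and Gclc, Txnrd1 and Hmox1, Keap1 and Nfe2l3, and Nfe2l3 and Bach1. Nfe2l3 was thus at a level like those of Keap1 and Bach1 without doxycycline. With doxycycline it was the lowest of the 10, at 1.40 ± 0.496 CPM per kilobase, below the range of Nqo1, the next member. The ratio of Nfe2l2 to Nfe2l3 on this scale went from 7.39 ± 0.878 to 22.8 ± 5.74 (SD, n = 3 each), while that of Nfe2l1 to Nfe2l2 was 0.612 ± 0.0223 and 0.5997 ± 0.0766. The ratio of Nfe2l2 to Keap1 was 6.39, 5.22 and 5.49 in lines 3, 4 and 5 without and 6.78, 4.905 and 8.35 with doxycycline, with overlapping groups.

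The 3 hairpin lines often moved in opposite directions. Only Nfe2l3 and Bach1 moved the same way, down, in all 3 lines, and the other 8 members did not, where 61.4% of all genes tested moved in opposite directions. Nfe2l1, Keap1, Hmox1 and Txnrd1 were higher in line 3 and lower in lines 4 and 5, and Gclc was the reverse. These 5 of 10 members set line 3 against both other lines, as 31.4% of all genes tested did. The spread between the highest and the lowest log2 ratio of the lines was 2.47 for Hmox1, larger than for 99.8% of all genes tested, and 1.38 for Nfe2l3, larger than for 95% of them. For Gclm it was 0.222 and for Bach1 0.258, larger than for 14.6% and 18.8% of them. A test of different responses between lines could not be made with 1 library per line and condition.

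**Figure D3:**
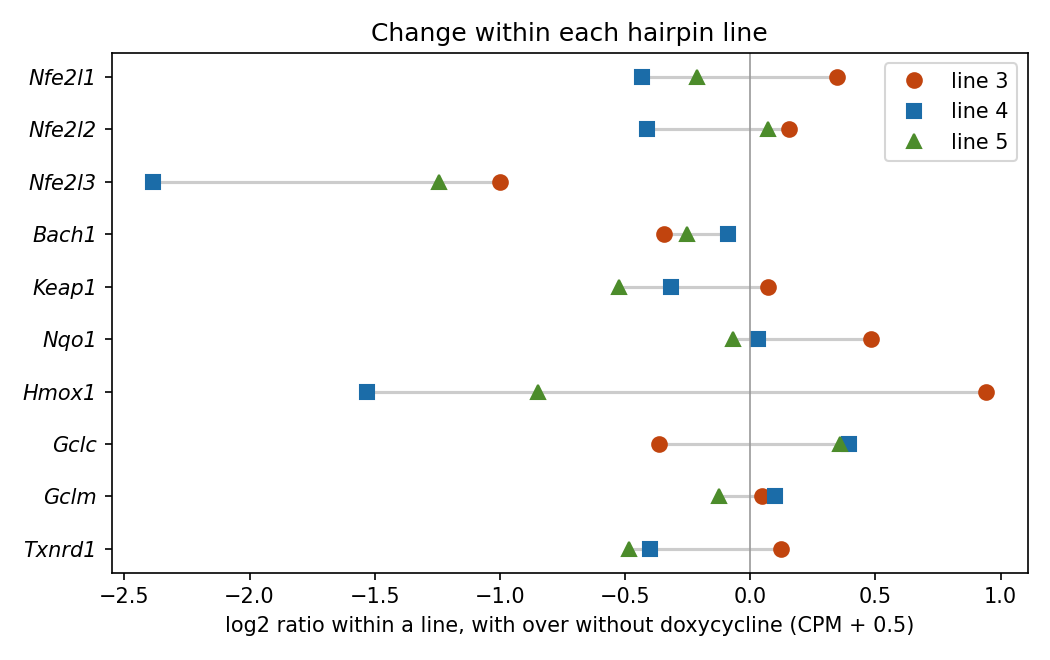
Log2 ratio of each gene with over without doxycycline within each line (0.5 added to each CPM), 1 point per line, with a grey bar from the lowest to the highest line. The points of Nfe2l3 and Bach1 all lie below 0, and those of Hmox1 run from -1.53 in line 4 to 0.94 in line 3.

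Whether the lines differed in level, whatever the treatment, had not been used to name the members and could be tested. None of the 10 passed in the edgeR quasi-likelihood F test over all genes, with 2 libraries per line (adjusted p of 0.8675 to 0.985). The test called 0 of all 14531 genes (0%), while 667 genes (4.59%) and 0 members had an unadjusted p under 0.05. Limma-voom called 0 genes as well. Closest was Nqo1, which had the same order of lines in both groups. Its mean over both conditions was 2.405 CPM in line 3, 3.29 in line 4 and 4.56 in line 5, a ratio of 1.90 between the outer lines (edgeR adjusted p = 0.8675). Hmox1 followed at 55.6, 26.5 and 32.4 CPM (edgeR adjusted p = 0.8675), with untreated values of 37.9 to 41.8 CPM. Without the filter on low counts, the test called 240 genes, Hmox1 among them. Nfe2l3 had line means of 8.08, 8.76 and 8.40 CPM (edgeR adjusted p = 0.967).

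The rest of the pathway was read from 138 genes in 9 lists. These lists too were chosen with earlier results of these data known, so their calls and p-values are a description. Of the 130 tested, 1 was higher and 0 were lower with doxycycline (edgeR, adjusted p under 0.05), where 2.28% of all genes tested passed, 0.963% as higher and 1.32% as lower. At an unadjusted p under 0.05, 21 were higher and 2 lower, together 23 of 130, beside 16.3% of all genes tested. Their median log2 fold change was 0.11, beside 0.00 (0.0031) over all genes tested, with 80 above and 50 below 0. Of all genes tested, 7326 were above and 7205 below 0. The gene that passed was Blvra, the biliverdin reductase that works on the product of Hmox1. It was at 62.3, 57.8 and 67.5 CPM without and 104, 87.6 and 90.5 CPM with doxycycline. All treated values lay above all untreated ones, and the log2 fold change was 0.59 with an SE of 0.13 (edgeR adjusted p = 0.0419). Under the replicate block its edgeR adjusted p was 0.0671, and no pathway gene passed. Its call was lost in 11 of 17 alternatives, among them those without any 1 of the untreated libraries (adjusted p = 0.188, 0.273 and 0.128 without line 3, 4 and 5) and without the treated library of line 5 (0.0741), at log2 fold changes of 0.43 to 0.66 over all 17.

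Partners and handlers of the factors did not pass. Among 4 tested CNC relatives and small Maf genes, Maff and Mafk had log2 fold changes of -0.38 (SE 0.21) and 0.23 (SE 0.13; edgeR adjusted p = 0.397 and 0.419), and Bach2 was not tested with 29 and 7 reads per group. Maff was at 84.4 CPM in line 3 in both conditions and at 44.99 and 55.9 CPM in treated lines 4 and 5. It passed in 1 of 17 alternatives, the one without the treated library of line 3 (log2 fold change -0.67, edgeR adjusted p = 0.0121). In that fit 10.4% of all genes tested passed. Of all 14531 genes tested 7205 were below 0, and 16.3% had an unadjusted p under 0.05. Of 15 genes for the turnover and release of Nfe2l2 and Nfe2l1, 11 were below 0, with a median of -0.25 and 2 genes at an unadjusted p under 0.05. These were Syvn1, a ubiquitin ligase of the endoplasmic reticulum, at -0.38 (SE 0.15, edgeR adjusted p = 0.259), and Ngly1, the glycanase that edits Nfe2l1 on its release, at -0.32 (SE 0.14, edgeR adjusted p = 0.289). DESeq2 and limma-voom called 0 genes in these lists too.

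The autophagy receptor Sqstm1, which can hold Keap1, and the cystine carrier genes were looked at after their values had been seen, because they spread between treated libraries. Sqstm1 was at 693, 760.1 and 782 CPM without doxycycline and at 1059, 252 and 524 CPM with it in lines 3, 4 and 5, the same order of treated lines as Hmox1. Slc7a11, the cystine carrier, was at 63.3, 63.3 and 60.7 CPM without and 59.5, 17.7 and 58.8 CPM with doxycycline, and its partner Slc3a2 at 222, 236 and 263 CPM without and 325, 151 and 237 CPM with it. Line 4 had the lowest treated value of all these genes, as it had of Nfe2l1, Nfe2l2, Nfe2l3 and Hmox1. It had the highest treated value of Bach1, Keap1, Gclc and Gclm. Since the genes were picked for their spread, nothing is read from this order.

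Genes of glutathione and thioredoxin did not pass either. Of 28 tested glutathione genes 17 were above 0 (median 0.12, 3 at an unadjusted p under 0.05), with the glutathione transferases Gstm4 and Gstk1 at 0.39 (SE 0.14) and 0.67 (SE 0.28; edgeR adjusted p = 0.195 and 0.272). Of 14 thioredoxin and peroxiredoxin genes 11 were above 0 (median 0.10, 2 at an unadjusted p under 0.05). Beside both lists, 7326 of all 14531 genes tested were above 0 and 16.3% had an unadjusted p under 0.05. Txn1, the thioredoxin that Txnrd1 reduces, was at 486, 513 and 545 CPM without and 763, 605 and 716 CPM with doxycycline. Its groups did not overlap, and the fitted difference was 0.43 on the log2 scale with an SE of 0.14 (edgeR adjusted p = 0.169). Prdx4, a peroxiredoxin of the endoplasmic reticulum, was at 0.34 (SE 0.12, edgeR adjusted p = 0.183).

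The remaining enzymes pointed both ways, and all but Blvra did not pass. Among all 14531 genes tested 7326 were above and 7205 below 0, and 16.3% had an unadjusted p under 0.05. Among 6 genes of NADPH supply 5 were below 0 (median -0.21, 0 at an unadjusted p under 0.05), with Idh1 and Me1 at -0.37 (SE 0.17) and -0.38 (SE 0.20; edgeR adjusted p = 0.319 and 0.372). Among 15 quinone, carbonyl and xenobiotic genes 11 were above 0 (median 0.12, 4 at an unadjusted p under 0.05), with Adh7, on 14 and 48 reads, at 1.72 (SE 0.53) and the epoxide hydrolase Ephx1 at 0.50 (SE 0.17; edgeR adjusted p = 0.142 and 0.173). Of 12 heme and iron genes 8 were below 0 (median -0.02), with Blvra the 1 that passed. Of 3 tested superoxide and catalase genes, Sod2 was at 0.32 (SE 0.13) and Sod1 at -0.15 (SE 0.14; edgeR adjusted p = 0.261 and 0.642). DESeq2 and limma-voom called Blvra and no other gene of the 9 lists.

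The last list holds genes of the proteasome, its assembly factor Pomp and its activator Psme4 among them, known as targets of Nfe2l1. Of 33 tested 29 were above 0, beside 7326 of all 14531 genes tested. The median of the 33 was 0.23 beside 0.00 (0.0031) over all genes tested, and 0 of the 33 passed in edgeR, DESeq2 or limma-voom. At an unadjusted p under 0.05, 10 of the 33 were higher and 0 lower, beside 1210 higher and 1157 lower of all 14531 genes. Psma4 and Psmb6 had log2 fold changes of 0.38 (SE 0.12) and 0.42 (SE 0.14; edgeR adjusted p = 0.154 and 0.169). The median of the 33 was 0.15 once the trends on transcript length and GC content were removed, beside 0.0223 over all genes tested in that fit.

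**Figure D4:**
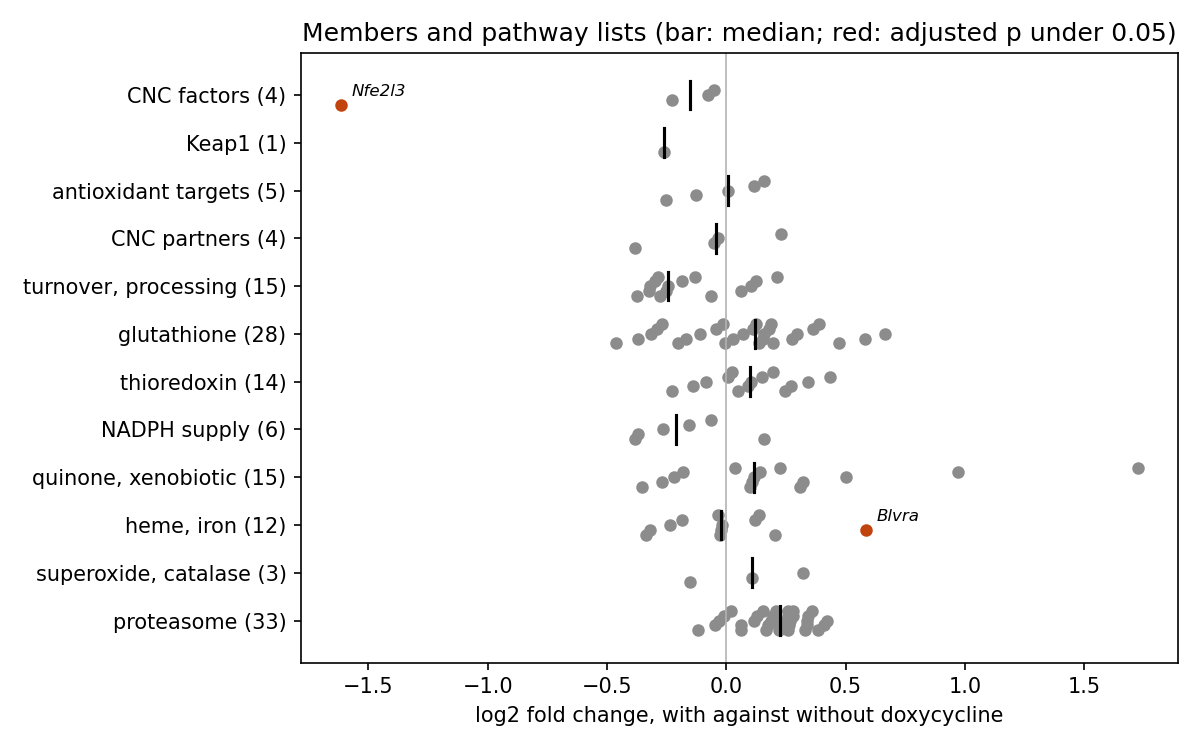
Log2 fold change with against without doxycycline of every tested gene, grouped by the 3 kinds of members and the 9 pathway lists (number tested in brackets), with a bar at each median and red points for an adjusted p under 0.05. Nfe2l3 at -1.61 and Blvra at 0.59 are the red points, and 29 of 33 proteasome genes lie to the right of 0.

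The genes most like Nfe2l3 across the 6 libraries, by Pearson correlation of log2 CPM among the 9847 candidates whose mean reached 5 CPM, were Nt5c2, Chd5, Impdh1, Dbn1 and Lfng, with r of 0.998 to 0.994. The libraries form 2 groups that differ in Nfe2l3, so any gene that differs between the groups scores high, and the r is a description only. Likeness in pattern was not likeness in size: Nt5c2, a nucleotidase, was at 125 to 128 CPM without and 113 to 119.8 CPM with doxycycline, a log2 fold change of -0.11. Chd5, a chromatin remodeler, went from 13.95 ± 1.06 to 6.86 ± 1.79 CPM (SD, n = 3 each; log2 fold change -1.03). Its values were 13.4, 15.2 and 13.2 CPM without and 8.01, 4.79 and 7.77 CPM with doxycycline in lines 3, 4 and 5. The choice by likeness to Nfe2l3 fixes this difference and the order of the lines, so neither is a result of its own.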

How the data were processed

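RNA sequencing of 6 libraries of mouse KP cells was analysed, 3 without and 3 with 100 ng/ml doxycycline. The authors deposited raw read counts per Ensembl gene, without normalization. HTSeq, STAR, CASAVA, DESeq2, Picard, bedtools, R 3.3.0 and build mm10 are named per the submitters' processing notes. Annotation release, strand setting and other versions: not given in the sources used here. The 5 rows that name no gene, 43.7% to 47.7% of reads, were left out. Symbols, coordinates and exon lengths came from GENCODE (GRCm38, the same build), with symbols for 48058 of 48526 identifiers. Levels per kilobase use all annotated exons of a gene.

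Tests on these counts used edgeR 4.0.16 under R 4.3.3 (quasi-likelihood F test after filterByExpr and TMM, Benjamini-Hochberg adjustment over all 14531 genes tested), for doxycycline and, with treatment in the model, for the lines. The SE was taken as the absolute log2 fold change over the root of F. Alternatives were RLE scaling, other filters, the replicate block, DESeq2 1.42.0, limma-voom (limma 3.58.1) and each library or line left out. Offsets for transcript length and GC content were added after the data were seen. The procedures were tested on simulated data. Groups and line numbers are those of the labels. Equal numbers mark 1 stable line, which pairs its libraries. Their deviations from the group means correlated with r = 0.0434, 0.0962 and 0.0274 in lines 3, 4 and 5.

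The members and lists were chosen with earlier results of these data known. Named by rule were the 10 members, Npm1, up to 4 passing genes of each list or else the 2 of smallest p, and the 5 genes most correlated with Nfe2l3. Genes outside this rule are said to be so. The list of B lymphocyte markers as a whole is not reported here. The p-values for doxycycline measure the spread between the libraries of a group. Each line has 1 library per condition, so differences between lines and between libraries cannot be told apart in it. In the line test and under the replicate block, line and treatment are both in the model. The spread used there is that of the response to doxycycline between lines. The 24391198 to 27341036 counts per library put 3 counts at 0.0991 to 0.137 CPM.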

Additional observations from a re-analysis of the deposited data

Results flagged for a closer look

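Lines moved in opposite directions for 8 of the 10 members, compared with 61.4% of all genes tested, and with 1 pair of libraries per line the difference between lines was not tested. The gap between the highest and the lowest log2 ratio of the 3 lines was 2.47 for Hmox1, 0.779 for Nfe2l1, 0.758 for Gclc, 0.605 for Txnrd1, 0.592 for Keap1, 0.566 for Nfe2l2, 0.55 for Nqo1 and 0.222 for Gclm. For Hmox1 the log2 ratios were 0.94 in line 3, -1.53 in line 4 and -0.85 in line 5. For Gclc they were -0.365, 0.39 and 0.36, and for Nfe2l1 0.35, -0.43 and -0.21 in the same order. Line 3 moved against both other lines for 5 of the 10 members, as it did for 31.4% of all genes tested. Its treated library also stood apart over all genes, with a chi-square per degree of freedom of 108 and 80.9 against those of lines 4 and 5, which differed from each other by 35.8.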

How the results depend on the processing

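Nfe2l3 was lower with doxycycline in all 17 alternatives, with log2 fold changes of -1.90 to -1.20, and passed in 14. Its low treated values were known when it was named, and all 17 reuse the same libraries. Its sign and calls there are therefore a description. The number of members called was 1 except when a library or line was dropped, where it was 0 to 2. It was 2 (Nfe2l3 and Hmox1) without the treated library or both libraries of line 3. In these 2 fits 10.4% and 4.5% of all genes tested were called, against 2.28% in the main fit. The fold changes of Bach1, Keap1, Gclc and Txnrd1 kept their sign in all 17, while those of Nfe2l1, Nfe2l2, Nqo1, Hmox1 and Gclm kept it in 13 of 17, 15 of 17, 12 of 16, 13 of 17 and 10 of 17. Over all genes 332 were called, 1052 without the filter on low counts, 49 with at least 5 CPM on average (9 members tested, Nqo1 left out), 720 by DESeq2, 243 with the replicate block, and 62 to 1551 with a library or line left out. Pathway genes called were 1, and 3 without the filter, 0 with at least 5 CPM, 0 with the replicate block, 0 with the length and GC offsets, 0 with both, and 0 to 5 with a library or line left out. Nfe2l3 passed with the replicate block, which changed no other call of a member, and with both kinds of offsets. Between lines, 240 genes and 1 member (Hmox1) were called without the filter, against 0 and 0. No cause of these differences was tested. Depth limits Nqo1, with 50 to 122 reads per library, and genes such as Adh7 and Bach2.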
